A study of Homo sapiens with 4 samples.

Results

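The genes described here encode the ubiquitin-conjugating (E2) enzymes. They were taken as the rows of the count tables whose symbol begins with UBE2 and a letter, has no hyphen and does not end in P and a number. This gave 39 of the 28063 gene rows, of which 35 passed the filter on low counts and 4 (UBE2DNL, UBE2L5, UBE2NL and UBE2U) had 0 reads in every library. By the RefSeq annotation UBE2DNL, UBE2E4P, UBE2NL and UBE2Q2L are transcribed pseudogenes, and UBE2Q2L is listed there as UBE2Q2P16. The cells were KELLY, a MYCN-amplified human neuroblastoma line, transduced with lentivirus for IWS1-FLAG, a tagged form of a transcription elongation factor, and selected with 1 ug/ml puromycin. The WT group received wild-type IWS1-FLAG, and the M3 group a form in which TIM3, a motif for binding TND domains, was disrupted. Each group had 2 libraries of poly(A) RNA, harvested at 50% confluency. Both groups carried an added IWS1 and the labels name no removal of the cells' own, so the comparison is between 2 added forms. Untransduced cells were not analysed here.

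E2 enzymes stand in the middle of a cascade. An E1 enzyme activates ubiquitin, an E2 takes it over on a catalytic cysteine, and an E3 ligase brings the loaded E2 to the substrate. The choice of E2 often sets which chain is built: some E2s start chains, others extend them through a fixed lysine of ubiquitin, and a few carry SUMO, NEDD8 or ISG15 in place of ubiquitin.

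The UBE2D enzymes start chains with many E3 ligases and are close paralogs, so their sequences bear on how far their counts can be told apart. The lines give a stretch of each coding sequence (GENCODE 29, bases 223 to 282 from the start codon, of 441), 5′ to 3′, beginning at the codons of a conserved His-Pro-Asn motif ahead of the catalytic cysteine. Capitals mark bases that differ from UBE2D2.
UBE2D1: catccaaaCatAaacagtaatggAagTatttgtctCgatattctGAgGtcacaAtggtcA
UBE2D2: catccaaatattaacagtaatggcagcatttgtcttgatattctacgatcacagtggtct
UBE2D3: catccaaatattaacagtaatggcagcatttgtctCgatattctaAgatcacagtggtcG
UBE2D4: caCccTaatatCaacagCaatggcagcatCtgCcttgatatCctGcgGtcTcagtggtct
UBE2D3 differed from UBE2D2 at 3 of these bases, and UBE2D1 and UBE2D4 each at 10. Over the whole coding sequence UBE2D2 and UBE2D3 were identical at 86.6% of bases, with a longest identical run of 80 bases. The other pairs were identical at 77.1% to 78.5%, with no identical run above 20 bases. Of the 50-base stretches of UBE2D2 transcripts 1.17% also occurred in UBE2D3. For UBE2D3 the share found in other genes was 2.91%, for UBE2D4 0.611% and for UBE2D1 0%.

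The 4 libraries held 12289685 to 20962372 gene counts. Levels are given as CPM, counts scaled to a common library size after TMM, a correction for differing library composition. Replicates differed by more than sampling noise (chi-square per degree of freedom 18.2 within WT and 3.84 within M3), so none was treated as a repeat. Between groups it ran from 19.1 (WT library 2 with M3 library 2) to 57.6 (WT library 1 with M3 library 1). The WT libraries thus differed from each other nearly as much as the closest libraries of different groups. Separate cultures are not named in the labels, and p-values measure the spread between these libraries alone, which may be technical. IWS1 itself was at 370.3 and 394 CPM in the WT libraries and at 596 and 599 with M3 (0.65 ± 0.12 on the log2 scale, edgeR adjusted p = 0.0225). Added and endogenous IWS1 cannot be told apart in this count. Neuroblastoma markers summed to 7647 to 8210 CPM in WT and 6346 to 6509 in M3. By the test described below 4 of 12 were lower in M3, where 6.63% of all tested genes were lower. With library trends on length and GC content removed 2 of 12 were lower, beside 3.43% of all genes. Summed levels in WT and M3 were 3.18 to 3.84 and 2.26 to 2.27 CPM for haematopoietic markers (CD3E at 0), and 4.61 to 6.97 and 2.91 to 3.90 for epithelial markers. They were 10.1 to 10.2 and 7.95 to 11.6 CPM for Schwann and glial markers (S100B at 0), and 87.2 to 95.5 and 123 for endothelial and fibroblast markers. Most of this last sum was PDGFRB, at 67.8 and 88.1 CPM in the WT libraries and 111 and 110 with M3 (edgeR adjusted p = 0.0534). The part of these marker lists in the results was not tested. In such bulk samples fewer cells of a type and less RNA per cell cannot be told apart.

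Of the 35 E2 genes tested, 6 fell and 3 rose in M3. The genes that fell were UBE2L6, UBE2M, UBE2D2, UBE2C, UBE2T and UBE2J2, by 26.5% to 34.2%, and those that rose were UBE2W, UBE2D1 and UBE2K, by 42.4% to 74.7%. In edgeR's quasi-likelihood test, with a Benjamini-Hochberg adjusted p below 0.05 over all 14141 tested genes, 15.8% of all genes were called, 9.16% higher and 6.63% lower. Of the E2 genes 25.7% were called, 8.57% higher and 17.1% lower. The median log2 fold change was -0.15 over the E2 genes and -0.01 over all tested genes. The M3 libraries lay below both WT libraries for 17 E2 genes and above them for 7, while for all genes the shares were 34.1% and 34%. The 9 calls were also refitted with an M3 library left out, where the spread comes from the WT pair alone, the wider pair. The log2 fold changes kept their sign. UBE2W was at 0.79 without M3 library 1 and 0.82 without M3 library 2, and UBE2T at -0.37 and -0.70. Without a WT library the spread comes from the M3 pair, and UBE2M was at -0.34 without WT library 1 and -0.75 without WT library 2. All 9 ended without M3 library 1 (edgeR adjusted p 0.0773 to 0.528), and without M3 library 2 only that of UBE2W remained (0.0340, the others 0.0872 to 0.292). With total-count scaling, which raised the median of all genes by 0.12 on the log2 scale, UBE2W, UBE2D1 and UBE2K stayed past the threshold and none of the 6 lower genes did (edgeR adjusted p 0.0681 to 0.121), with no sign changed among these 9. The plot of fold changes by role gives 34 of the 35 genes with their errors.

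**Figure D1:**
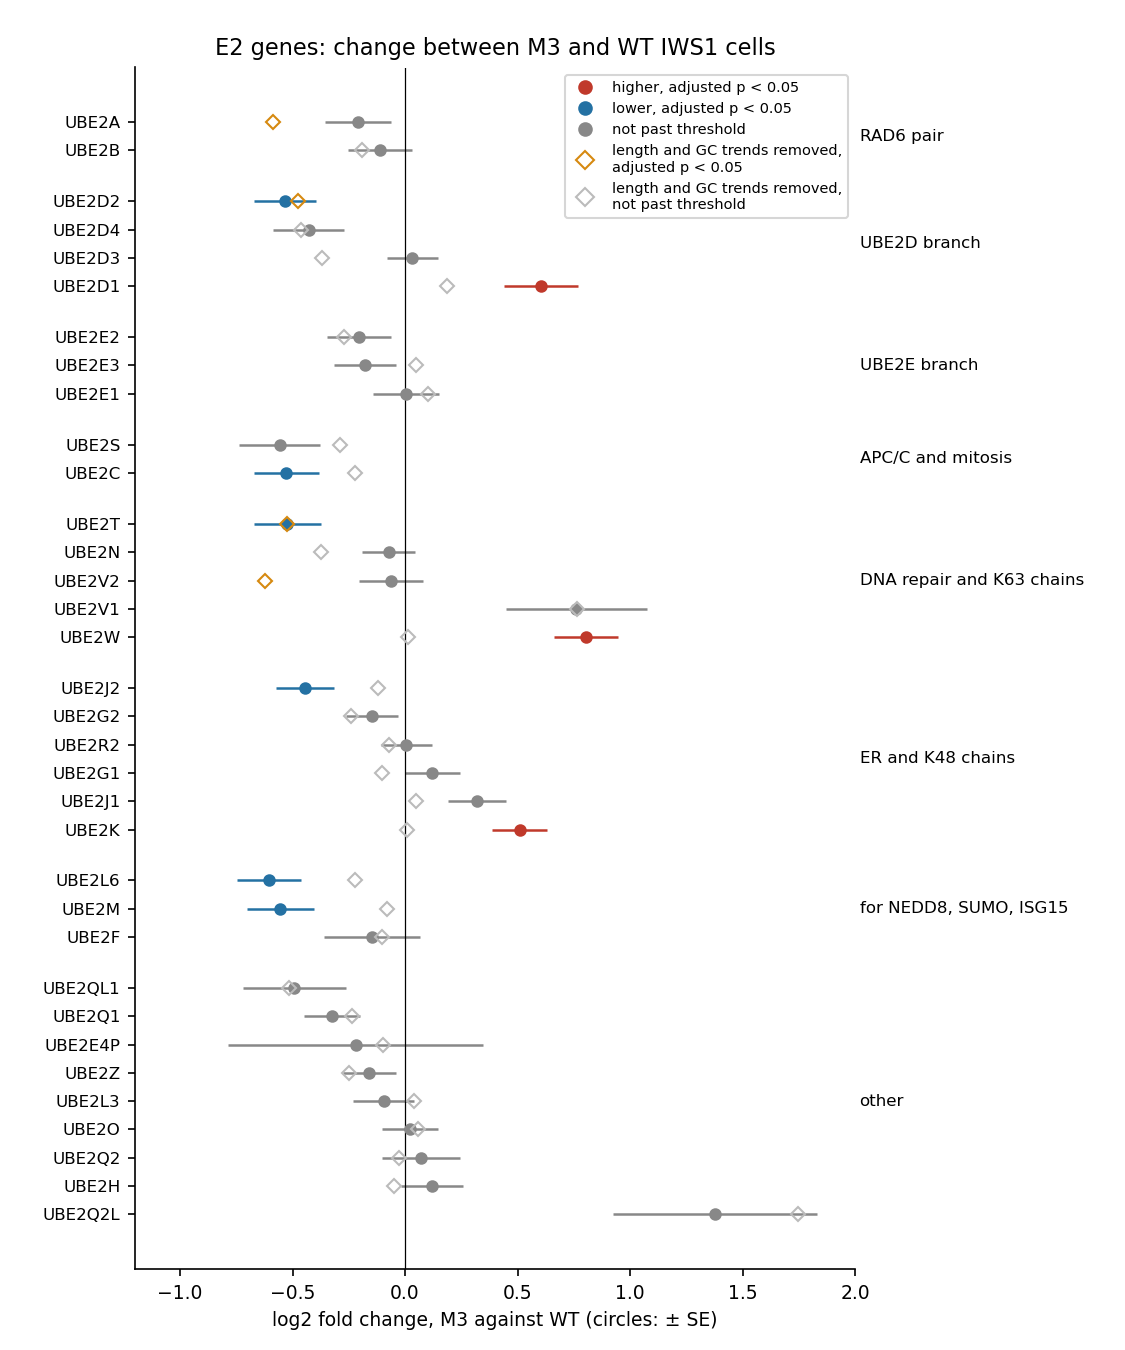
Log2 fold change of 34 tested E2 genes between M3 and WT (horizontal axis; circles with SE bars), grouped by role, with the value once library trends on length and GC content were removed (diamonds, no error drawn). Red circles are the 3 genes that rose, blue circles the 6 that fell, and orange diamonds the 4 genes past the threshold in the fit without trends.

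Among the UBE2D enzymes 1 rose, 1 fell and 2 did not pass. UBE2D1 (chromosome 10, 58335006 to 58370748, GRCh38.p14) was at 10.8 and 11.2 CPM in the WT libraries and 17.5 and 16.1 with M3. Both M3 libraries were above both WT libraries, a log2 fold change of 0.61 ± 0.16 (SE; edgeR adjusted p = 0.0419). It did not pass with DESeq2 (adjusted p = 0.0574). UBE2D2 (chromosome 5, 139526240 to 139628434) was at 177 and 143 CPM in the WT libraries and 108 and 114 with M3. The M3 values lay below the WT values, a log2 fold change of -0.53 ± 0.14 (edgeR adjusted p = 0.0377). UBE2D3 was at 241 and 227 CPM in the WT libraries and 239.6 and 239.6 with M3, with overlapping groups (0.03 ± 0.11, edgeR adjusted p = 0.862). UBE2D4, of which 15.5% of exonic bases lie in antisense genes, was at 25.1 and 21.3 CPM in the WT libraries and 16.7 and 17.7 with M3 (-0.43 ± 0.16, edgeR adjusted p = 0.0903). Ratios within the branch restate these changes, as UBE2D1 rose and UBE2D2 fell while the groups overlapped for UBE2D3. There were 0.0611 and 0.0782 UBE2D1 reads per UBE2D2 read in the WT libraries and 0.162 and 0.142 with M3, and 1.36 and 1.58 and 2.23 and 2.11 UBE2D3 reads. In both ratios the M3 libraries were above the WT libraries. With 2 libraries a group the smallest p of an exact permutation test is 0.333, and the ratios were not tested.

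The E2s of the anaphase-promoting complex (APC/C), the E3 ligase that drives exit from mitosis, were both lower in the M3 libraries, and 1 of the 2 passed. UBE2C, which starts chains on APC/C substrates (chromosome 20, 45812644 to 45816952), was at 84.9 and 68.4 CPM in the WT libraries and 52.1 and 53.9 with M3 (-0.53 ± 0.14, edgeR adjusted p = 0.0431). UBE2S, which extends those chains, had the highest count of the family, with 936 and 652 CPM in the WT libraries and 522 and 557 with M3. Its groups did not overlap, but the WT libraries lay far apart and it missed the threshold (-0.56 ± 0.18, edgeR adjusted p = 0.0652). It passed with DESeq2 (adjusted p = 0.0121) and without a count filter in edgeR (0.000619). It did not pass with limma-voom (adjusted p = 0.0608) or total-count scaling (edgeR adjusted p = 0.0914). With library trends on length and GC content removed it was at -0.29 and did not pass (edgeR adjusted p = 0.205). Without WT library 1 its log2 fold change was -0.28. In UBE2S 17.5% of the 50-base stretches are shared with pseudogenes. There were 0.0907 and 0.105 UBE2C reads per UBE2S read in the WT libraries and 0.0999 and 0.0968 with M3, with overlapping groups. Of 17 APC/C subunits and regulators 1 rose and 0 fell, with a median of -0.14. It was CDC27, a core subunit (0.70 ± 0.13, edgeR adjusted p = 0.0224). In the list of 16 G2/M genes 5 rose and 1 fell, with a median of 0.13. AURKB, the mitotic kinase aurora B, fell (-0.76 ± 0.13, edgeR adjusted p = 0.0204). The kinetochore genes CENPE (0.96 ± 0.18, edgeR adjusted p = 0.0224) and CENPF (0.65 ± 0.16, 0.0362) and the proliferation marker MKI67 (0.67 ± 0.16, 0.0316) rose. With library trends on length and GC content removed 0 genes of either list were higher: CDC27 was at 0.15 (edgeR adjusted p = 0.311), CENPE at 0.20 (0.257), CENPF at 0.09 (0.624) and MKI67 at 0.25 (0.126). In that fit AURKB (-0.37, edgeR adjusted p = 0.0487) stayed lower and the APC/C subunit ANAPC5 (-0.45, 0.0345) was lower.

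Of 5 tested E2s of DNA repair and K63 chains 1 rose, 1 fell and 3 did not pass. UBE2T, the E2 of the Fanconi anaemia pathway, which acts with FANCL on FANCD2 (chromosome 1, 202331657 to 202341936), was at 56.4 and 56.8 CPM in the WT libraries and 34.8 and 43.9 with M3. The WT libraries nearly coincided and both M3 libraries were below them (-0.52 ± 0.15, edgeR adjusted p = 0.0473). Its partners FANCL and FANCD2 were at -0.0097 ± 0.16 and -0.04 ± 0.12 on the log2 scale and did not pass (edgeR adjusted p = 0.973 and 0.857). UBE2W, which puts ubiquitin on the amino terminus of proteins (chromosome 8, 73780096 to 73878862), had the largest rise among the called E2 genes. It was at 20.7 and 18.8 CPM in the WT libraries and 34.7 and 34.1 with M3 (0.80 ± 0.14, edgeR adjusted p = 0.0207). UBE2N, the enzyme that builds K63 chains, was at 150.4 and 138 CPM in the WT libraries and 134 and 140.1 with M3 (-0.07 ± 0.12, edgeR adjusted p = 0.692), and 39.5% of its exonic bases lie in the antisense gene NUDT4. Its partners UBE2V1 and UBE2V2 lack the catalytic cysteine. UBE2V2 was at 44.1 and 38.3 CPM in the WT libraries and 41.3 and 37.5 with M3 (-0.06 ± 0.14, edgeR adjusted p = 0.784). UBE2V1 had 37 and 42 reads in the WT libraries and 56 and 55 with M3 (0.76 ± 0.32, edgeR adjusted p = 0.120). Its count is uncertain, since 42.9% of its exonic bases lie in the read-through gene TMEM189-UBE2V1, a row with 0 reads in all 4 libraries.

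Of 6 E2s for K48 chains and for degradation at the endoplasmic reticulum 1 rose and 1 fell. UBE2K, which builds K48 chains (chromosome 4, 39698136 to 39782792), was at 103 and 116 CPM in the WT libraries and 158 and 154 with M3. Both M3 libraries were above the WT libraries (0.51 ± 0.12, edgeR adjusted p = 0.0325). UBE2J2, a membrane-anchored E2 of the endoplasmic reticulum (chromosome 1, 1253912 to 1273854), was at 172 and 144 CPM in the WT libraries and 116 and 116 with M3 (-0.44 ± 0.13, edgeR adjusted p = 0.0496). It sat at the threshold and did not pass with limma-voom (adjusted p = 0.0511). Its paralog UBE2J1 was at 47.8 and 44.2 CPM in the WT libraries and 58.5 and 56.4 with M3, with the M3 libraries above (0.32 ± 0.13, edgeR adjusted p = 0.111). There were 0.278 and 0.307 UBE2J1 reads per UBE2J2 read in the WT libraries and 0.506 and 0.485 with M3. The lack of overlap in this ratio follows from the opposite, non-overlapping values of the paralogs, and the ratio was not tested. UBE2R2, a relative of CDC34, was at 137 and 136 CPM in the WT libraries and 140.01 and 134 with M3 (0.0065 ± 0.11, edgeR adjusted p = 0.975). UBE2G1 (0.12 ± 0.12) and UBE2G2 (-0.15 ± 0.12) did not pass either. In the list of E3 partners of the endoplasmic reticulum 2 of 10 rose and 1 fell, with a median of -0.06. SEL1L, an adaptor of the HRD1 ligase (0.74 ± 0.19, edgeR adjusted p = 0.0374), and the ligase MARCH6 (0.57 ± 0.14, 0.0331) rose. AUP1, which recruits UBE2G2 to membranes, fell (-0.54 ± 0.14, edgeR adjusted p = 0.0378), and 18.3% of its exonic bases lie in other genes.

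Of the 4 E2s that carry other modifiers 2 fell and 0 rose. UBE2M, the NEDD8 E2 for most cullins (chromosome 19, 58555712 to 58558611), was at 312 and 234 CPM in the WT libraries and 189.7 and 182 with M3 (-0.55 ± 0.15, edgeR adjusted p = 0.0422). The WT libraries lay far apart, and without WT library 1 the log2 fold change was -0.34 (edgeR adjusted p = 0.00167). In UBE2M 10.7% of the 50-base stretches are shared with the pseudogene UBE2MP1. UBE2F, the other NEDD8 E2, had 150 and 191 reads in the WT libraries and 111 and 144 with M3, with overlapping CPM (-0.15 ± 0.21, edgeR adjusted p = 0.645), and 16.2% of its exonic bases lie in a read-through gene. UBE2L6, an E2 for ISG15 (chromosome 11, 57551662 to 57567935), had the largest fall among the called E2 genes, with 50.7 and 47.4 CPM in the WT libraries and 29.8 and 34.6 with M3 (-0.60 ± 0.14, edgeR adjusted p = 0.0314). Its paralog UBE2L3, which loads HECT and RBR ligases, was at 182 and 149 CPM in the WT libraries and 159 and 150.4 with M3 (-0.10 ± 0.13, edgeR adjusted p = 0.638).

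**Figure D2:**
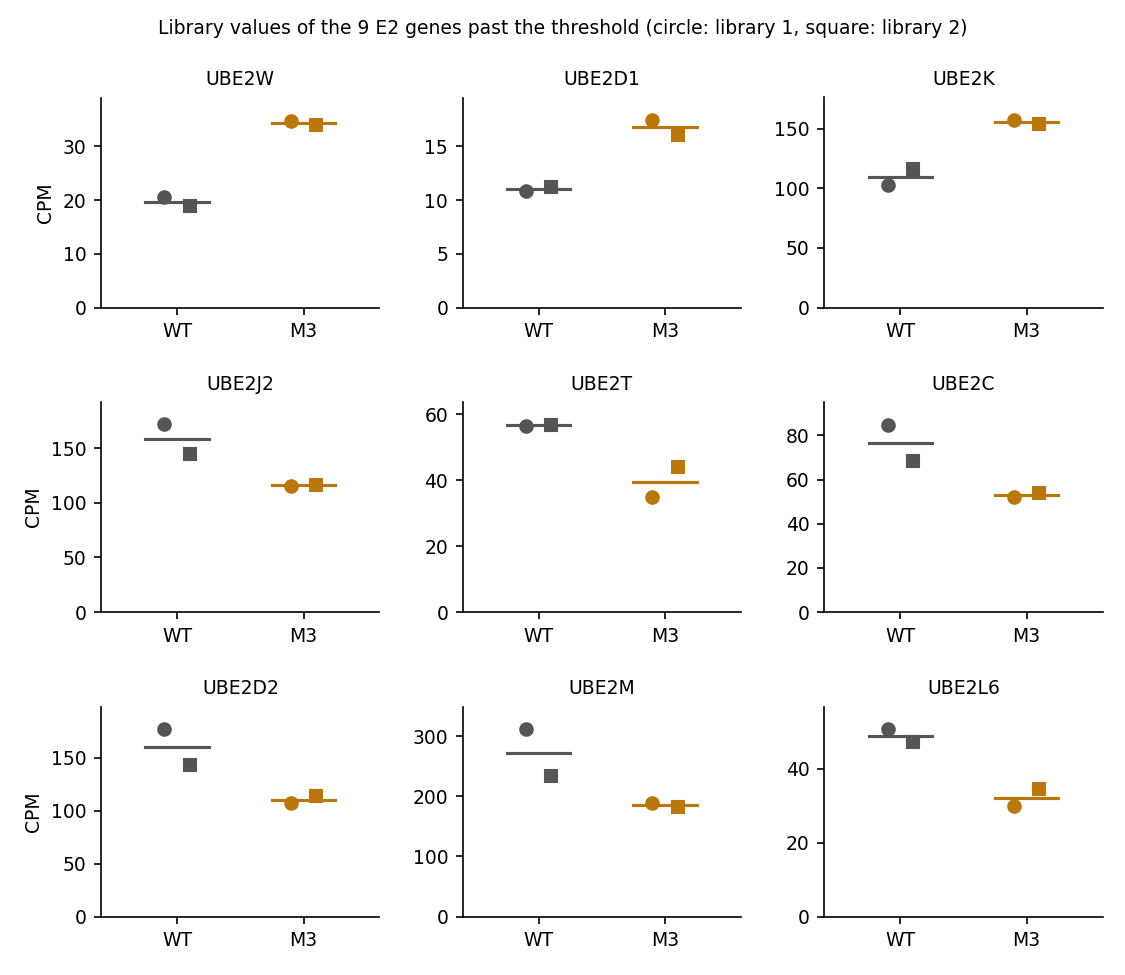
CPM (vertical axes, each from 0) of the 9 called E2 genes in WT and M3 cells, with a circle for library 1, a square for library 2 and a line at the mean. In each panel both M3 libraries lie on the same side of both WT libraries, above for UBE2W, UBE2D1 and UBE2K and below for the other 6.

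Neither RAD6 enzyme nor any UBE2E enzyme passed. UBE2A and UBE2B, which ubiquitinate histone H2B and PCNA, were both slightly lower in the M3 libraries. UBE2A was at 26.5 and 23.3 CPM in the WT libraries and 21.1 and 21.9 with M3 (-0.21 ± 0.15), and 18.1% of its exonic bases lie in the antisense gene NKRF. UBE2B was at 32.4 and 28.03 CPM in the WT libraries and 27.8 and 27.96 with M3 (-0.11 ± 0.14), so its groups nearly touched. With total-count scaling its log2 fold change was 0.0087, the opposite sign. UBE2E1 was at 101 and 79.0 CPM in the WT libraries and 88.0 and 92.5 with M3 (0.0045 ± 0.15), and UBE2E2 and UBE2E3 were at -0.20 ± 0.14 and -0.18 ± 0.14 on the log2 scale. None of the 9 tested genes outside these groups passed. UBE2O, a large enzyme that joins E2 and E3 activity, was at 400.4 and 436 CPM in the WT libraries and 435 and 415 with M3 (0.02 ± 0.12, edgeR adjusted p = 0.916). The log2 fold changes of UBE2H (0.12 ± 0.14), UBE2Q1 (-0.33 ± 0.12), UBE2Q2 (0.07 ± 0.17), UBE2QL1 (-0.49 ± 0.23) and UBE2Z (-0.16 ± 0.12) did not pass, nor did that of UBE2L3. The pseudogene UBE2Q2L, of which 42.6% of 50-base stretches occur in other genes, had 8 and 22 reads in the WT libraries and 36 and 25 with M3 (1.38 ± 0.45, edgeR adjusted p = 0.0668). The pseudogene UBE2E4P had 7 to 16 reads (-0.22 ± 0.57).

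The summed level of the family, in CPM after TMM, was lower in both M3 libraries. The members summed to 4261 and 3705 CPM in the WT libraries and 3449 and 3455 with M3. UBE2S alone made up 22.0% and 17.6% of this sum with WT and 15.1% and 16.1% with M3. Without UBE2S the sums were 3325 and 3053 CPM in the WT libraries and 2927 and 2898 with M3. Both sums depend on TMM, whose factors were 0.916 and 1.01 in the WT libraries and 1.05 and 1.04 with M3. A factor above 1 lowers the CPM of a library. Neither sum was tested or taken with total-count scaling.

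Levels of different genes can be set side by side only per length of transcript. With the longest annotated transcript as length, UBE2S was highest at 312 ± 78.7 CPM per kb (SD, n = 2) in WT and 212 in M3. UBE2M followed at 181 ± 36.2 and 123, and UBE2C at 83.9 ± 12.8 and 58.0. UBE2O (77.0 ± 4.67) did not differ from UBE2C in WT beyond these SDs, and UBE2J2 was at 64.4 ± 7.99. By this length the called genes that rose lay below the genes just named. UBE2K was at 20.9 CPM per kb in WT and 29.7 in M3, UBE2D1 at 4.14 and 6.31, and UBE2W at 2.34 and 4.08. With the median length of a gene's transcripts UBE2S was at 1282 CPM per kb in WT and UBE2M at 611, and UBE2D3 followed at 355. By that length UBE2K, at 123 in WT, lay above UBE2C, at 112. The order below UBE2S and UBE2M changes with the transcript chosen.

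**Figure D3:**
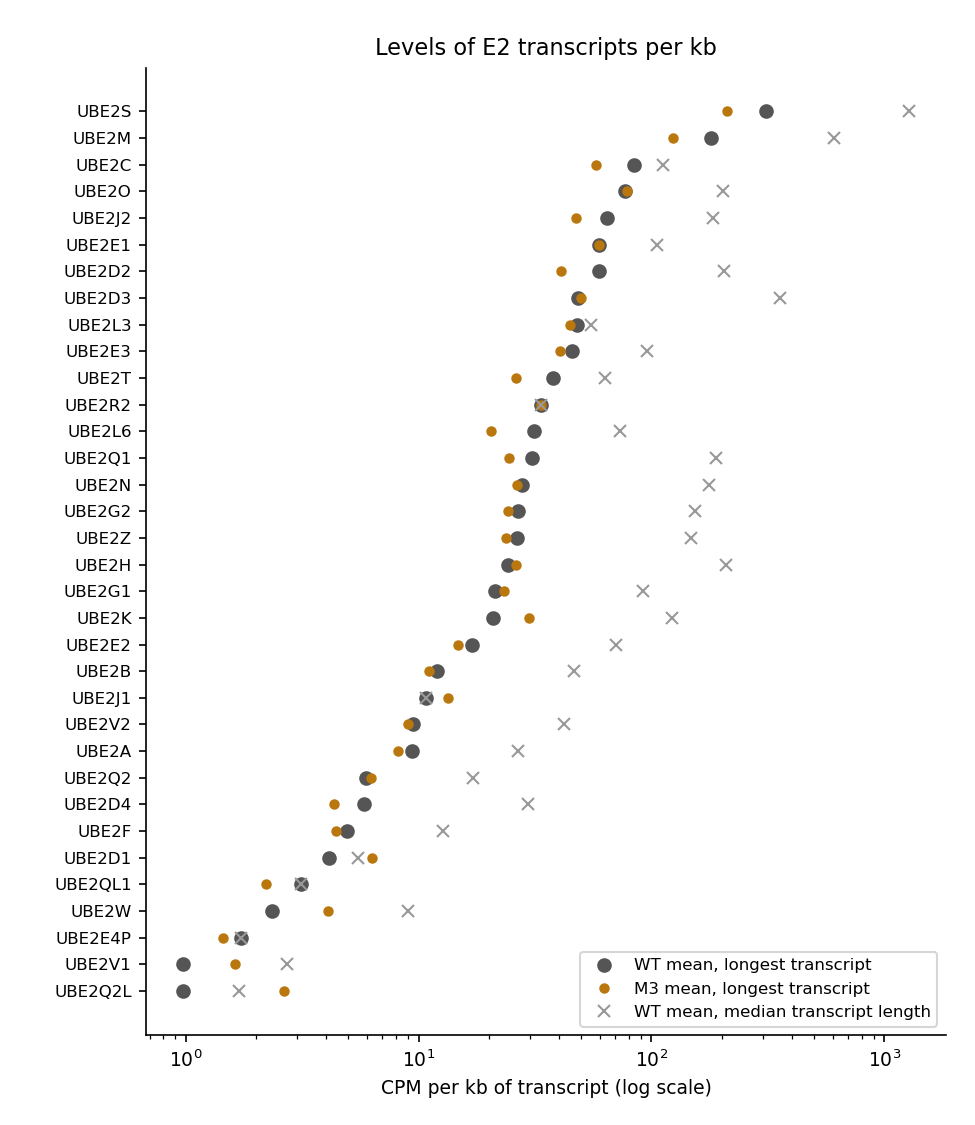
Level of 34 tested E2 genes in CPM per kb of transcript (horizontal log axis), as the mean of 2 WT libraries (grey) and 2 M3 libraries (orange) over the longest transcript, and of the WT libraries over the median transcript length (crosses). UBE2S and UBE2M are highest by either length, and the other genes change order with it.

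The direction of change went with transcript length and base composition, in E2 genes and in the table as a whole. The 3 genes that rose have longest transcripts of 2659 to 8426 nt with a GC content of 34.0% to 36.8%, and the 6 that fell have 914 to 2702 nt and 40.1% to 65.6%. Across the 35 E2 genes Spearman's rho of the log2 fold change was 0.42 with length and -0.52 with GC content. Across 13721 tested genes with a transcript it was 0.51 and -0.53. Genes share libraries and are not independent replicates, so these are descriptions. In 10 equal bins of all genes by length, the median ran from -0.38 for the shortest to 0.49 for the longest.

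**Figure D4:**
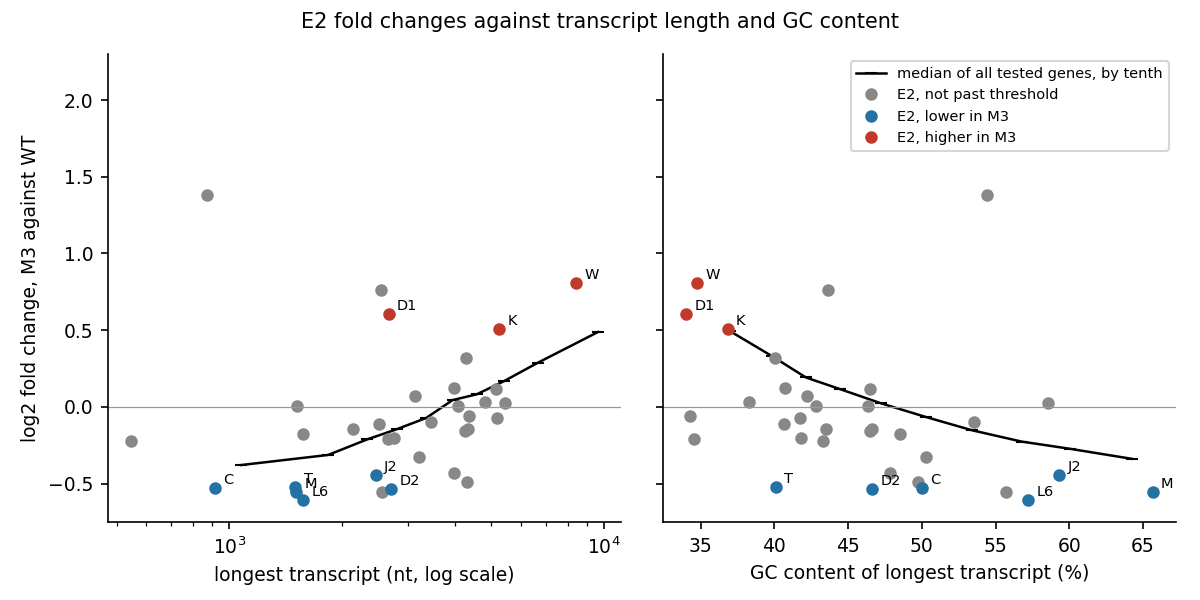
Log2 fold change between M3 and WT against the length (left, log axis) and GC content (right) of the longest transcript for 34 tested E2 genes (points), with the median of all tested genes in 10 equal bins of each property (line). The line rises from -0.38 to 0.49 with length and falls from 0.49 to -0.34 with GC content. All called genes that fell, UBE2T and UBE2D2 among them, lie below it in both panels.

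With the trends of the libraries on length and GC content removed, 0 E2 genes were higher and 4 were lower, where 1.96% of all genes were higher and 3.43% lower. UBE2D2 (-0.48, edgeR adjusted p = 0.0324) and UBE2T (-0.52, 0.0361) stayed past the threshold. UBE2W, UBE2K and UBE2D1 were at 0.01, 0.01 and 0.19 and did not pass (edgeR adjusted p = 0.973, 0.955 and 0.482). UBE2M (-0.08), UBE2J2 (-0.12), UBE2L6 (-0.22) and UBE2C (-0.22) did not pass either (edgeR adjusted p from 0.197 to 0.638). UBE2A (-0.59, edgeR adjusted p = 0.0346) and UBE2V2 (-0.62, 0.0270), with transcripts of 34.6% and 34.3% GC, were lower in this fit and had not passed before. These trends differ between the groups, so a change in the cells that follows length or GC content and a trend of the libraries cannot be told apart.

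The counts for other genes of the pathway stand against 9.16% of all tested genes called higher and 6.63% lower, with 58% of all calls higher. Of 13 ubiquitin and ubiquitin-like genes 5 fell and 0 rose, with a median log2 fold change of -0.43 (-0.01 over all genes). Among those that fell were the ubiquitin genes RPS27A (-1.50 ± 0.13, edgeR adjusted p = 0.0185) and UBB (-0.65 ± 0.15, 0.0307), the NEDD8 gene (-0.96 ± 0.19, 0.0240) and FAU (-0.67 ± 0.18, 0.0417). RPS27A and FAU also encode ribosomal proteins. The share of exonic bases in other genes was 28.4% for UBB, 22.6% for FAU and 13.4% for NEDD8. Of 9 E1 genes 2 rose and 0 fell (median 0.14). Among them was UBA6, a ubiquitin E1 beside UBA1 (0.58 ± 0.16, edgeR adjusted p = 0.0411). The main ubiquitin E1, UBA1, was at 435 and 416 CPM in the WT libraries and 407 and 399 with M3 (-0.08 ± 0.12).

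Of 8 genes with an E2 fold but no UBE2 symbol 1 rose and 0 fell (median -0.09). BIRC6, a giant enzyme that joins E2 and E3 activity, was at 66.1 and 117 CPM in the WT libraries and 192 and 164 with M3 (0.95 ± 0.23, edgeR adjusted p = 0.0339), with WT libraries far apart. CDC34, the E2 of SCF ligases, was at 125 and 93.3 CPM in the WT libraries and 69.7 and 81.4 with M3 (-0.53 ± 0.17, edgeR adjusted p = 0.0596). Of 16 cullins and their partners 4 rose and 0 fell (median 0.15). They were the scaffold CUL5 (0.88 ± 0.16, edgeR adjusted p = 0.0224), the neddylation helpers DCUN1D1 (0.86 ± 0.13, 0.0198) and DCUN1D4 (0.66 ± 0.14, 0.0261), and CAND1, which exchanges substrate receptors (0.59 ± 0.14, 0.0333). The RING subunits RBX1 and RNF7 were at -0.39 ± 0.17 and -0.42 ± 0.16 on the log2 scale and did not pass.

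Of 20 HECT, RBR and other ligases 4 rose and 0 fell, with a median of 0.37. They were MDM2, the p53 ligase (0.71 ± 0.14, edgeR adjusted p = 0.0239), and the HECT ligases NEDD4 (0.70 ± 0.20, 0.0498), TRIP12 (0.61 ± 0.15, 0.0359) and UBE3A (0.56 ± 0.14, 0.0333). Of 13 ligases and partners in DNA repair and chromatin 3 rose and 0 fell (median 0.27). They were SHPRH (0.87 ± 0.24, edgeR adjusted p = 0.0435) and HLTF (0.58 ± 0.14, 0.0329), which extend chains on PCNA, and RNF2, which ubiquitinates histone H2A (0.47 ± 0.13, 0.0474). Of 12 SUMO ligases and proteases 3 rose and 1 fell (median 0.32). The protease SENP7 (0.86 ± 0.19, edgeR adjusted p = 0.0290) and the ligases RANBP2 (0.74 ± 0.16, 0.0287) and PIAS2 (0.47 ± 0.13, 0.0458) rose and the ligase NSMCE2 (-0.63 ± 0.18, 0.0473) fell. With the length and GC trends removed 0 of the genes that rose or fell in the E1, E2-fold, cullin, ligase and SUMO lists stayed past the threshold, and 3 of the 5 ubiquitin and ubiquitin-like genes did, among them RPS27A (-1.36, edgeR adjusted p = 0.000194) and NEDD8 (-0.96, 0.0182). In that fit CUL3, a scaffold of the cullin list that had not passed before, was lower (-0.44, edgeR adjusted p = 0.0439). The list medians in that fit were -0.02 for HECT, RBR and other ligases, -0.04 for the SUMO list and -0.07 for the cullins. They were 0.06 for ligases and partners in DNA repair and chromatin, and -0.26 for ubiquitin and ubiquitin-like genes.

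Promoters are shown for UBE2T, which passed with and without the trends, for UBE2S, the E2 of highest level, and for UBE2K, which rose. Each line is the 250 bases before the annotated start (RefSeq, GRCh38.p14), 5′ to 3′ on the gene's strand: chr1:202341937-202342186 (minus), chr19:55407789-55408038 (minus) and chr4:39697886-39698135 (plus). Capitals mark CCAAT, which NF-Y binds, TTTGAA, known from cell cycle promoters, and CACGTG, an E-box of MYC proteins, each searched on both strands. No marked motif overlaps another.
UBE2T: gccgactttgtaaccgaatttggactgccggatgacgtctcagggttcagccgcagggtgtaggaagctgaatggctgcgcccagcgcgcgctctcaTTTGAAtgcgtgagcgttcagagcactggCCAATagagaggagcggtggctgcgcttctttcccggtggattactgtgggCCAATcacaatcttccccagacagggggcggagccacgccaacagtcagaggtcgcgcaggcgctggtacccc
UBE2S: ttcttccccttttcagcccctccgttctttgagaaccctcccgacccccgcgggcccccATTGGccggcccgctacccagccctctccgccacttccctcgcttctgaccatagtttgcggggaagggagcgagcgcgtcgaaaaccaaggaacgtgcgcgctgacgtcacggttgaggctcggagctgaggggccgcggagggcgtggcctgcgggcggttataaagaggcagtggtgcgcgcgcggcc
UBE2K: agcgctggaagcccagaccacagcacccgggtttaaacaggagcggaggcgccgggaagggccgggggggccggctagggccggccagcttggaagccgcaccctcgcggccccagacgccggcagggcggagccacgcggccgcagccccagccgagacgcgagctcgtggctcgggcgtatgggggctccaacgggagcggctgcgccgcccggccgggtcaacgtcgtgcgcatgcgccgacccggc
The UBE2T window holds 2 CCAAT and 1 TTTGAA, that of UBE2S 1 CCAAT, and that of UBE2K 0 of these motifs. RefSeq windows were found for 27 E2 genes (39 windows), and 28.2% of the windows held CCAAT, 7.69% TTTGAA and 0% CACGTG. Among all 35116 promoter windows of the same length these shares were 32%, 13.3% and 6.34%. Of 5 called lower E2 genes with a window 2 (UBE2D2 and UBE2T) held CCAAT, and of 2 called higher genes 0 did. A match describes these letters and is not a binding site.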

How the data were processed

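Poly(A) RNA of 4 KELLY libraries (2 WT, 2 M3) was analysed from whole-number read counts per gene symbol, deposited by the authors as 1 table a library without normalisation (28063 genes). The submitters' processing notes name the aligner HISAT2 (2.1.0), HTSeq, DESeq2 and hg38. The annotation and strand setting were not given in the sources used here. Whether the counts mix sense and antisense reads is therefore not known. The 5 summary values were kept out of tests. Of gene counts and summary values together, reads in no feature made up 23.2% to 27.5% and ambiguous reads 3.16% to 3.50%.

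Groups came from the labels. M3 was compared with WT in edgeR 4.0.16 (R 4.3.3; filterByExpr, TMM, robust quasi-likelihood F test, Benjamini-Hochberg over 14141 genes, threshold 0.05). The SE is the size of the log2 fold change over the root of F. The biological coefficient of variation was 0.124. Tested on simulated counts for M3 against WT (13960 genes), the fit recovered 76.0% and 77.1% of log2 changes of 1 and -1. Of changes of 2 and -2 it recovered 100% and 93.9%, with 12 false calls. The simulated counts had changes of these sizes only, the same spread in both groups and no trend on length or GC content. The called E2 changes were smaller, so neither the recovery nor the false calls can be carried over to them. Alternatives used DESeq2 1.42.0, limma 3.58.1 (voom), other scaling and filters, blocks, left-out libraries, and removal of trends on transcript length and GC content (GENCODE 29; splines with 5 degrees of freedom; 97.0% of tested genes had a transcript). The uncorrected fit on those genes and the crossed block were chosen after seeing the data. Positions and promoters came from RefSeq GRCh38.p14.

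Members and gene lists were chosen with earlier results of these data known. Some genes, 1 tested member among them, are not reported here. The other tested members were named, with library values for called genes, their paralogs and the uncalled gene of highest CPM in each role, and up to 4 called genes of each other list by size of change. Named outside this rule, after their values were seen, were the library values of UBE2A, UBE2V1, UBE2V2 and UBE2Q2L, and FANCL, FANCD2, UBB, UBA1, CDC34, RBX1, RNF7, ANAPC5 and CUL3.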

Additional observations from a re-analysis of the deposited data

Results flagged for a closer look

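Reads assigned to no annotated feature enter none of the comparisons. As a share of gene counts and summary values together they made up 27.5% in M3 library 1 and 25.6% in M3 library 2. These shares were above the 23.3% and 23.2% of the WT libraries. This was picked out because it is a value outside the gene counts that is higher in M3 than in both WT libraries. Its part in the E2 results was not tested.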

How the results depend on the processing

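The 9 E2 calls kept their direction under all 16 alternatives. Median-of-ratios and upper-quartile scaling, no count filter, the filter on a mean count of 50 and the fit on genes with a transcript kept all 9, DESeq2 lost UBE2D1 and limma-voom UBE2J2. The count of changed genes (2232) was 1120 with total-count scaling (856 higher, 264 lower, or 76.4% higher beside 58%), 3945 without a count filter and 739 in the fit without length and GC trends (36.4% higher). It was 359 to 6735 with a library left out (without M3 library 1 and WT library 2), 1064 without M3 library 2 and 3526 without WT library 1. The 3 higher E2 genes became 0 with the trends removed and 0 to 5 with a library left out. The 6 lower E2 genes became 0 with total-count scaling and 0 to 14 with a library left out. The median E2 log2 fold change lay between -0.22 and -0.03. UBE2S in WT was at 312 CPM per kb by its longest and 1282 by the median transcript. Among the uncalled E2 genes 14 changed sign in some alternative.

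Replicate numbers are shared between groups, but deviations of same-numbered libraries correlated at -0.14 over 14141 genes, so the numbers were not taken as pairs. With the replicate block 2315 genes were called and 3 E2 genes were lower (UBE2D2, UBE2L6 and UBE2M), with 2 higher. With the replicate block and the trends removed 642 genes were called, 0 E2 genes were higher and 4 lower. With the crossed replicate block 5314 genes were called, 5 E2 genes higher and 11 lower. Where a library is left out, the lone sample of its group is taken to have the spread of the other.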

Other observations

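Rows with a UBE2 symbol that the rule left out, pseudogenes and antisense or read-through genes, were low. The pseudogene UBE2CP5 was at 13.3 and 8.50 CPM in the WT libraries and 6.54 and 7.73 with M3 (log2 fold change -0.59 ± 0.25, edgeR adjusted p = 0.130). UBE2MP1 was at 3.52 and 2.61 CPM in the WT libraries and 1.48 and 2.63 with M3 (-0.55 ± 0.38, edgeR adjusted p = 0.320), UBE2Q2P1 at 4.64 and 6.32 and at 6.08 and 5.46 (0.06 ± 0.25, 0.890), and UBE2Q2P2 at 2.32 and 1.28 and at 1.64 and 3.48 (0.56 ± 0.47, 0.422). The antisense gene UBE2Q1-AS1 had 0 and 1 reads in WT and 4 and 5 in M3, and was not tested. TMEM189, which shares the read-through gene with UBE2V1, was at 15.6 and 14.7 CPM in the WT libraries and 14.8 and 14.6 with M3 (-0.04 ± 0.16, edgeR adjusted p = 0.880).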
